A study of Mus musculus with 9 samples.

Results

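HOX genes encode homeodomain transcription factors that lie in 4 clusters and give cells their position along the body axis. The members were all genes of the count table whose symbol is Hox, a cluster letter from a to d and a number, which gave 39 of 55450 genes, namely 11 of Hoxa, 10 of Hoxb, 9 of Hoxc and 9 of Hoxd. The values given are those of 38 of them. RNA sequencing had been done on EYFP+ live cells sorted from the mammary glands of adult nulliparous mice. Control mice carried lsl-EYFP and K8CreERT2 only, the second genotype (labelled LATS1/2-KO) carried LATS1/2f/f in addition, and the third (labelled LATS1/2-Sox9-KO) carried LATS1/2f/f and Sox9f/f. All 3 groups received 5 daily doses of 2 mg of tamoxifen, controls included, and were taken 7 days after the last dose, with n = 3 libraries each. K8CreERT2 acts in Keratin 8-positive luminal cells, so EYFP marks luminal cells in which Cre was active and their progeny, and the sort was on live EYFP+ cells without a further epithelial marker. Nothing states that the libraries came from separate mice, so the spread between them may be partly technical. Total counts ran from 44167762 to 47003587 in control, from 50508666 to 61745346 in LATS1/2-KO and from 55503365 to 61967651 in LATS1/2-Sox9-KO.

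Within a cluster, genes numbered 1 sit at the 3′ end and mark anterior positions in the embryo, and genes with high numbers sit at the 5′ end and mark posterior ones. Polycomb complexes keep unused HOX genes silent, MLL and Trithorax complexes keep used ones active, and retinoic acid switches on genes at the 3′ end of the clusters. HOX proteins bind DNA together with cofactors of the TALE class, the PBX, MEIS and PKNOX proteins. In the mammary gland, Hoxa9, Hoxb9 and Hoxd9 act together in the growth of the gland, and Hoxc8 takes part in placing the embryonic mammary buds.

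The targeted genes were examined first. Lats1 had 5672, 5928 and 5940 normalized counts (counts scaled to the mean library size) in control, 2090, 1923 and 2336 in LATS1/2-KO and 2058, 1844 and 1709 in LATS1/2-Sox9-KO, lower in every library of both deletion groups. Lats2 had 1039, 865 and 1220 in control, 1256, 1434 and 1723 in LATS1/2-KO and 1957, 1580 and 1240 in LATS1/2-Sox9-KO, which goes against the labels. Sox9 had 23313, 19947 and 21532 in control, 7205, 9506 and 12433 in LATS1/2-KO and 8813, 6756 and 6460 in LATS1/2-Sox9-KO. It was thus already lower in LATS1/2-KO, whose labels give no Sox9 allele (log2 fold change -1.15, SE 0.19, adjusted p = 0.000682 by edgeR, and -0.97, short of the fold, without LATS1/2-KO replicate 1). Between LATS1/2-Sox9-KO and LATS1/2-KO it overlapped and was not called (-0.40, SE 0.19, adjusted p = 0.250 by edgeR). Gene-level counts include exons outside a floxed part, so they do not check the deletion itself. The group names are therefore those of the labels throughout, and every direction is one between libraries so labelled. Krt8 stood at a per-length level (RPKM, counts scaled by exon length and library size) of 1601 to 2049 in control and 2516 to 4376 in the other libraries, so the defining luminal keratin was present in all 9 libraries.

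HOX transcripts in these cells came almost wholly from 3 neighbouring genes, Hoxb2, Hoxb3 and Hoxb4. They lie within 35.7 kb of the Hoxb cluster, at chr11:96318267-96354012 of GRCm38, and gave 92.8% to 94.2% of the summed per-length HOX level in control, 89.4% to 94.6% in LATS1/2-KO and 84.8% to 98.2% in LATS1/2-Sox9-KO. Hoxb4 was at 3.76 ± 0.53 RPKM (SD, n = 3) in control, Hoxb2 at 3.46 ± 0.18 and Hoxb3 at 2.79 ± 0.49. The median over 19333 tested genes with a length was 3.07, so these genes were of middle abundance. Their neighbours were lower. Hoxb1, 11.7 kb to the 3′ side of Hoxb2, had 0 counts in 6 of 9 libraries, and Hoxb5, 12.1 kb to the 5′ side of Hoxb4, had 0, 8 and 0 counts in control, where Hoxb4 had 398, 531 and 399. In control, each outer edge of this block of expression thus fell within a single gap between genes.

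**Figure D1:**
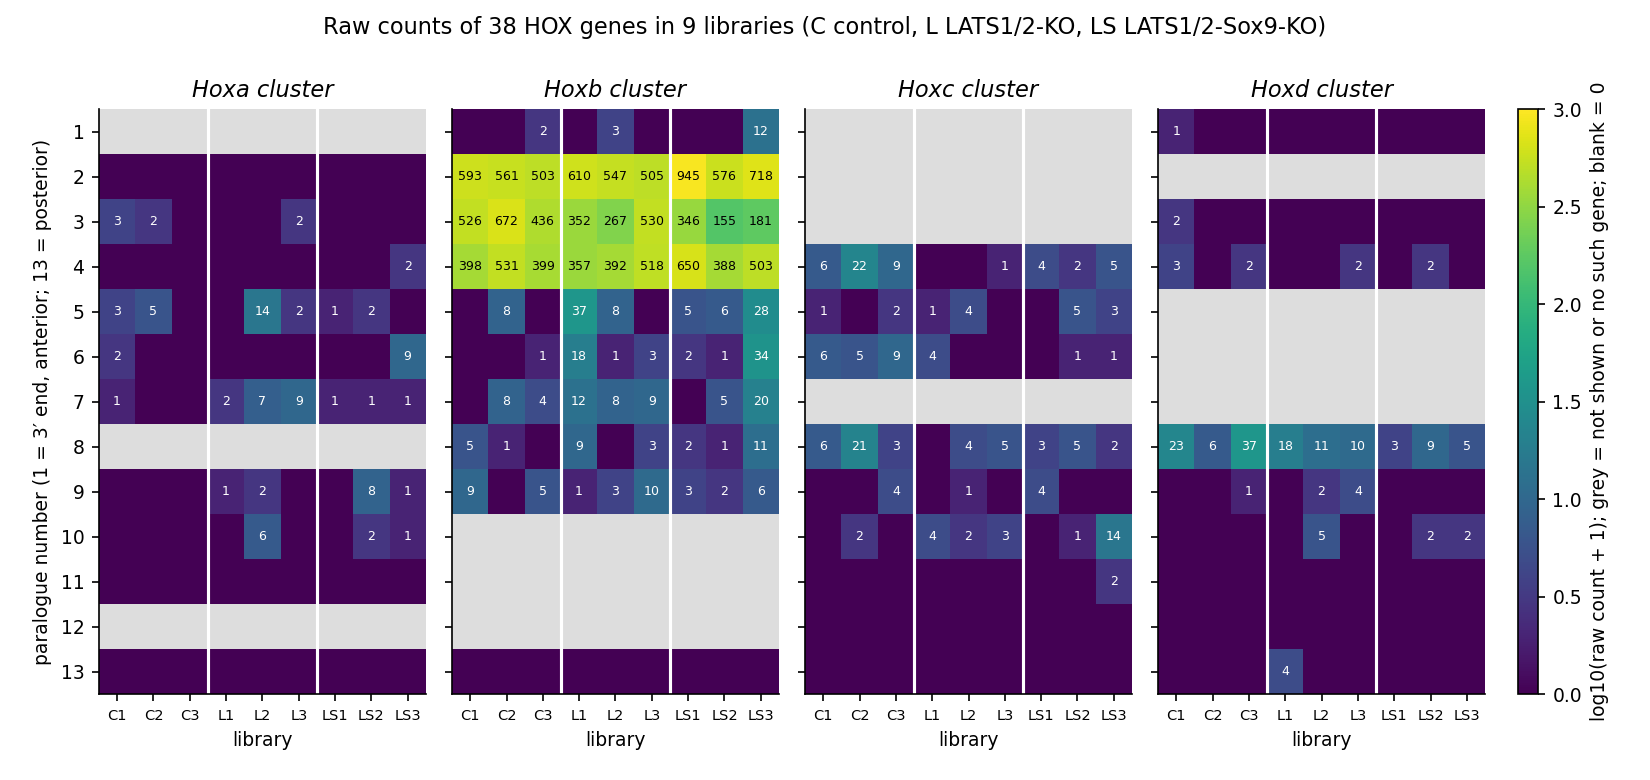
Raw counts of 38 HOX genes in 9 libraries, with 1 panel per cluster, paralogue numbers 1 to 13 from top to bottom and libraries from left to right (C control, L LATS1/2-KO, LS LATS1/2-Sox9-KO). Colour gives log10 of the count plus 1. Hoxb2, Hoxb3 and Hoxb4 stand at 155 to 945 counts, while no other gene shown exceeds 37. Grey marks genes not shown and places where a cluster has no gene.

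Of these 38 members, 4 passed the filter on low counts and were tested (Hoxb2, Hoxb3, Hoxb4 and Hoxd8). Another 26 had counts that were too low to test, and 8 had 0 counts in every library (Hoxa2, Hoxa11, Hoxa13, Hoxb13, Hoxc12, Hoxc13, Hoxd11 and Hoxd12). A count of 0 in a control library allows a level of up to 0.0638 to 0.0679 CPM (counts scaled to library size), a limit that covers counting error only. By position, 2 of 7 anterior members (paralogues 1 to 3), 2 of 15 central members (4 to 8) and 0 of 16 posterior members (9 to 13) could be tested. Posterior genes gave 2 to 26 counts a library in all, and 7 of the 16 were at 0 throughout. The group 9 genes that act in growth of the gland, Hoxa9, Hoxb9 and Hoxd9, reached at most 8, 10 and 4 counts in any library. In each of the other clusters the leading member in control was weak by the per-length level, namely Hoxd8 at 0.18 ± 0.13 RPKM (SD, n = 3), Hoxc4 at 0.10 ± 0.07 and Hoxa5 at 0.03 ± 0.03.

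Sequence upstream of the start was taken from RefSeq (GRCm38.p6), which held 24 promoters for 22 of the HOX genes, among them those of Hoxb4, a member of the expressed block, and Hoxd8, the leading gene of its cluster. The 250 bases before each start are printed 5′ to 3′ on the plus strand, and capitals mark the hexamer AGGTCA on either strand, a half-site for retinoic acid receptors. Hoxb4 (chr11:96318017-96318266) has a GC content of 58% and 14 CpG dinucleotides, and Hoxd8 (chr2:74704365-74704614) has 44.4% and 6.
Hoxb4: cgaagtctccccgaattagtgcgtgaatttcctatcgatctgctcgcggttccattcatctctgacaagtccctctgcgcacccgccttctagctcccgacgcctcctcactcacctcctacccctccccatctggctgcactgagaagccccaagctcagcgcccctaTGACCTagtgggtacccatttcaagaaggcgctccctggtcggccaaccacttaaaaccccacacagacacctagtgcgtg
Hoxd8: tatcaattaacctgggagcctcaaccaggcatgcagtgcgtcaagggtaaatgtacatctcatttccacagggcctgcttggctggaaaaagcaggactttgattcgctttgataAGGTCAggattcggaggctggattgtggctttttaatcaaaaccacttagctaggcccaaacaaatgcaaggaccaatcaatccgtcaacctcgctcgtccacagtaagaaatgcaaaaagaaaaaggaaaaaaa

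The hexamer AGGTCA occurred in 6 of the 24 HOX promoters and in 4607 of all 32851 promoters of the same length. GGAATG, the core bound by TEAD factors, occurred in 1 of 24 HOX promoters against 12.6% of all, AACAAT, a core of SOX sites, in 0 of 24 against 9.42%, and TGATTNAT, a joint PBX and HOX site, in 2 of 24 against 2.82%. Both strands were searched, no match overlapped another in the printed pair, and a match is a run of letters, not a bound site. The median ratio of observed to expected CpG was 0.72 over HOX promoters and 0.37 over all, and 13 of 24 HOX promoters exceeded 0.6, against 34.0% of all. Among them, the promoter of Hoxb4 stood at 0.76, that of Hoxd8 at 0.49, and that of Hoxa13, at 0 counts in all libraries, at 0.88.

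The clusters also hold miRNA genes, of which 2 seed families are shown here because members of each family sit at like positions in different clusters. The mature sequences are from RefSeq, with the seed (bases 2 to 8) in capitals. Mir10a lies in the gap between Hoxb4 and Hoxb5, the 5′ edge of the expressed block.
mmu-miR-10a-5p: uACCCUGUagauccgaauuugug
mmu-miR-10b-5p: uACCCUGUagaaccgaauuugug
mmu-miR-196a-5p: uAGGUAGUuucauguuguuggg
mmu-miR-196b-5p: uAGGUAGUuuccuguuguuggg
At their genes, Mir10a had 6 counts in 1 control library and 0 elsewhere, Mir196a-1 had 7 in 1 control library and 0 elsewhere, and Mir10b, Mir196a-2 and Mir196b had 0 throughout, as had Mir615 of the Hoxc cluster and Gm44463, a miRNA gene of the Hoxd cluster. These libraries were not made from small RNA, so mature miRNAs were not measured.

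The comparison of LATS1/2-KO with control asks what loss of the LATS1 and LATS2 kinases does in luminal cells. Hotairm1, Gm27477 and Gm15050, noncoding genes of the Hoxa cluster, rose from 0 counts in control, whereas no gene of the expressed Hoxb block was called. They were 3 of the 4 noncoding genes that could be tested of 21 in or within 5000 bases of this cluster, and 15 of the 21 were at 0 in every library. These 3 passed the filter only through the deletion groups, so they had to differ, and their share of the tested genes is no result. The other tested one, Gm27861, lies inside Hotairm1 and had 0, 6 and 1 raw counts in control, 17, 10 and 2 in LATS1/2-KO and 23, 23 and 11 in LATS1/2-Sox9-KO. It too passed the filter only through the deletion groups, so no p-value against control is given. By edgeR it was not called in either deletion group against control, and DESeq2 called it higher in LATS1/2-Sox9-KO only. Of the 4 tested HOX genes described, 0 were called by edgeR or DESeq2, and by edgeR only Hoxb3 had an unadjusted p below 0.05. DESeq2, run without that filter, called 1 other described member, Hoxc4, lower. A call needed a change of over 1 in either direction on the log2 scale together with an adjusted p no greater than 0.05 in edgeR (quasi-likelihood test, p adjusted by Benjamini-Hochberg over 19357 genes). Over all tested genes 34.6% were called, 17.1% higher and 17.5% lower, and 55.7% had an adjusted p no greater than 0.05 whatever the fold. The median log2 fold change of the 4 was -0.64, beside 0.04 over all tested genes. It ranged from -0.86 to 0.028 over the alternatives, depending on which genes passed the filter.

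Hotairm1, a noncoding RNA of the 3′ end of the Hoxa cluster that has been studied in myeloid cells (chr6:52156902-52162119), had 0, 0 and 0 raw counts in control, 190, 383 and 264 in LATS1/2-KO and 199, 272 and 286 in LATS1/2-Sox9-KO. All 6 deletion libraries lay above all 3 controls. Against a floor of 3 counts per control library it was at least 71.2-fold higher in LATS1/2-KO and at least 67.5-fold higher in LATS1/2-Sox9-KO. No p-value is given against control, since the gene passed the filter only through the deletion groups. Its per-length level was 4.56 ± 1.23 RPKM (SD, n = 3) in LATS1/2-KO, beside 2.80 ± 0.54 for Hoxb4 and 2.73 ± 0.46 for Hoxb2 in the same libraries.

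Gm27477, a short RNA gene just beyond Hotairm1, had 15, 47 and 35 raw counts in LATS1/2-KO and 14, 14 and 26 in LATS1/2-Sox9-KO, and Gm15050, an antisense gene further along, had 16, 20 and 11 and 7, 7 and 28. Both were at 0 in all 3 controls. They were at least 8.18-fold and 4.05-fold higher in LATS1/2-KO, and were picked after their values were seen. For these genes too no p-value is given, since they passed the filter only through the deletion groups. Hoxaas2, too low for the edgeR filter, had 0 in all controls, 27, 6 and 1 in LATS1/2-KO and 3, 11 and 9 in LATS1/2-Sox9-KO. DESeq2, run without that filter, called it higher in both deletion groups against control (adjusted p = 0.00477 and 0.0126). Among the HOX genes nearby, Hoxa2 had 0 counts in all libraries, and Hoxa3 and Hoxa4 had at most 3 in any. The labels name a TruSeq RNA kit, a kind that does not mark strand, so reads from genes that overlap on opposite strands are taken as uncertain. Strandedness was not tested.

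**Figure D2:**
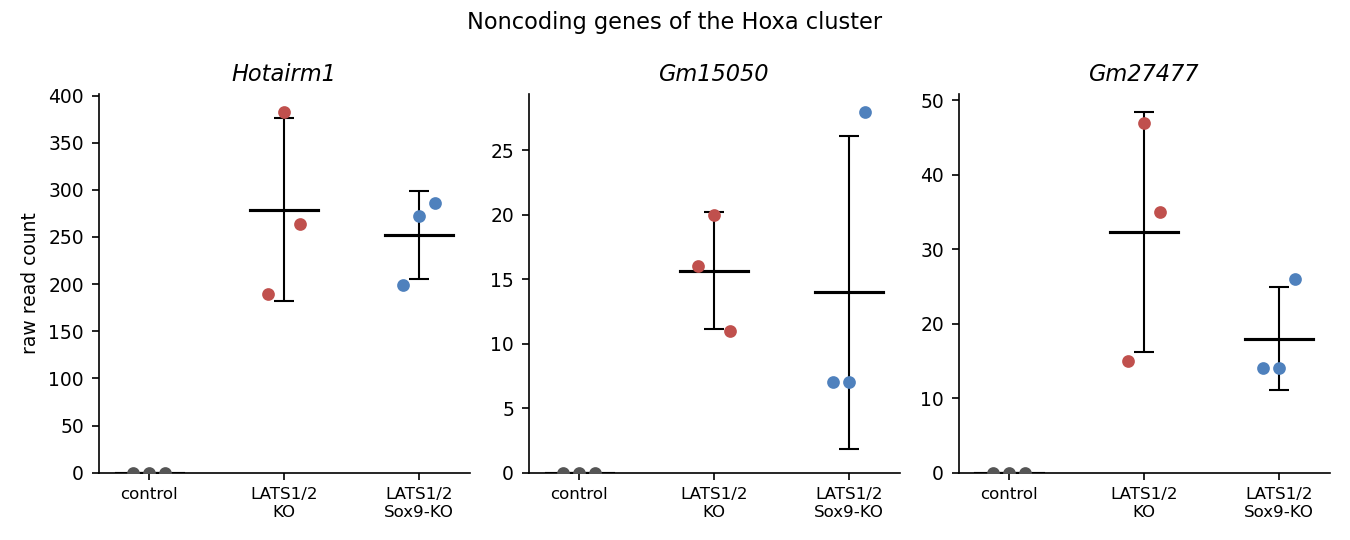
Raw read counts of Hotairm1, Gm15050 and Gm27477 by group, with 1 point per library, a line at the mean and bars of 1 SD (n = 3). All 3 genes are at 0 in the 3 controls, and Hotairm1 reaches 190 to 383 counts in LATS1/2-KO.

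Markers of other cells were examined beside this result, since in bulk samples a change in the share of cells and a change in RNA per cell cannot be told apart. The summed per-length level of 9 basal and myoepithelial markers was 33.7, 30.8 and 25.9 RPKM in control, 2827, 1674 and 1628 in LATS1/2-KO and 1713, 3002 and 4115 in LATS1/2-Sox9-KO. Krt14, the basal keratin, made up most of it in the deletion libraries, and 4 of the 9 were higher and 3 lower in LATS1/2-KO, beside 17.1% and 17.5% of all tested genes. Trp63, which defines basal cells, was at 0.83, 4.77 and 4.72 RPKM in control, 0.16, 0.09 and 0.12 in LATS1/2-KO and 0.07, 0.24 and 0.25 in LATS1/2-Sox9-KO. The sum of 5 adipocyte markers, led by Fabp4, was 0.76 to 1.23 in control and 2.03, 19.7 and 9.60 in LATS1/2-KO, with 4 of the 5 higher. Adipoq, Cidec and Lep had at most 3 counts in any control and passed the filter only through the deletion groups, so they had to differ. In LATS1/2-Sox9-KO the adipocyte sum was 0.41, 6.44 and 5.33. Without Fabp4 it was 0.07 or less in control, 0.055, 8.59 and 4.60 in LATS1/2-KO and 0.19, 2.32 and 1.53 in LATS1/2-Sox9-KO. The sum of 7 immune markers, led by Lyz2 and with the T cell gene Cd3e at 0 in every library, was 2.36 to 6.86 in control, 15.5, 4.02 and 1.53 in LATS1/2-KO and 5.15, 3.72 and 7.82 in LATS1/2-Sox9-KO, and none of the 6 tested was called in LATS1/2-KO. Of the luminal lists, 6 of 7 hormone-sensing markers and 1 of 7 progenitor markers were lower in LATS1/2-KO and none was higher. Of the 6 general epithelial markers 0 were higher and 1 lower, where 17.5% of all tested genes were lower. Of the remaining lists, 1 was higher and 2 lower of 7 endothelial markers, 1 and 2 of 4 tested pericyte markers, and 0 and 3 of 3 tested Schwann cell markers. Among 9 fibroblast markers, whose sums are given further below, 4 were higher and 1 lower in LATS1/2-KO. In control, the pericyte genes Cspg4 and Abcc9 had 1, 6 and 5 and 6, 4 and 15 raw counts, and the fibroblast gene Lum 3, 5 and 18. These genes passed the filter mainly through the deletion groups, so their part in the genes counted as higher is no result. The part of these cell types in the counts of Hotairm1 was not tested.

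Hoxb3, which patterns the hindbrain and is used in blood progenitors, was the member of the expressed block that differed most. Its normalized counts were 610, 762 and 543 in control, 353, 226 and 483 in LATS1/2-KO and 321, 154 and 165 in LATS1/2-Sox9-KO. Every library of both deletion groups lay below every control, and the deletion groups overlapped. Over all tested genes, every library was below every control for 30.3% in LATS1/2-KO and 33.8% in LATS1/2-Sox9-KO. Between LATS1/2-KO and control its log2 fold change was -0.85 (SE 0.34, adjusted p = 0.0584 by edgeR and 0.0234 by DESeq2), short of a call. Without LATS1/2-KO replicate 3, the highest of its group, it was -1.13 (adjusted p = 0.0311) and was called.

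Hoxb2 and Hoxb4, on either side of Hoxb3, were not called in this comparison. Hoxb2 had 688, 636 and 626 normalized counts in control, 612, 463 and 461 in LATS1/2-KO and 877, 574 and 654 in LATS1/2-Sox9-KO. All LATS1/2-KO libraries lay below all controls, though 1 of them by little (log2 fold change -0.34, SE 0.20, adjusted p = 0.162). Over all tested genes, 30.3% had every LATS1/2-KO library below every control. Hoxb4 had 462, 602 and 497 in control, 358, 332 and 472 in LATS1/2-KO and 603, 387 and 458 in LATS1/2-Sox9-KO. Its groups overlapped, with a log2 fold change of -0.42 (SE 0.22, adjusted p = 0.131).

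The summed per-length level of the whole Hoxb cluster was 10.2 ± 0.96 RPKM (SD, n = 3) in control, 7.42 ± 1.2 in LATS1/2-KO and 8.53 ± 1.94 in LATS1/2-Sox9-KO, a log2 ratio of -0.45 and then 0.20. The sum of the described Hoxa members was 0.06 ± 0.05, 0.09 ± 0.09 and 0.10 ± 0.10. No test was made of these sums, since the members share the libraries and few carry each sum.

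**Figure D3:**
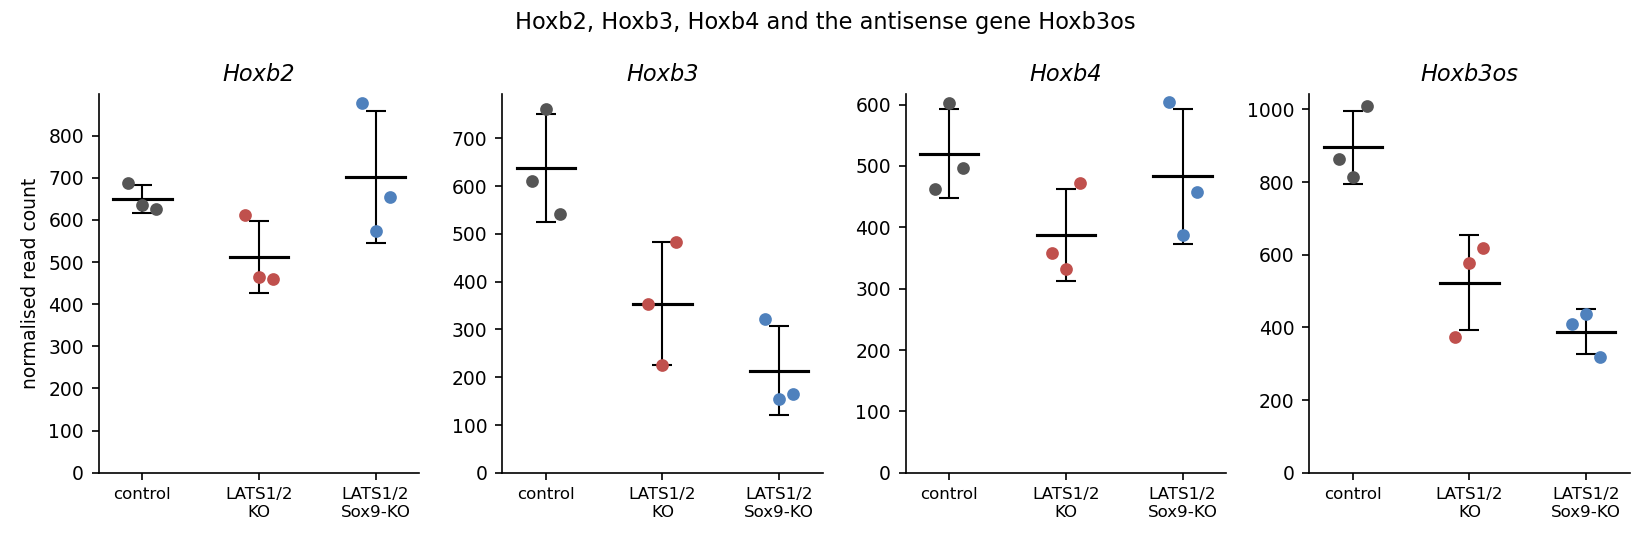
Normalised read counts of Hoxb2, Hoxb3, Hoxb4 and the antisense gene Hoxb3os by group, with 1 point per library, a line at the mean and bars of 1 SD (n = 3). Hoxb3 and Hoxb3os are lower in every deletion library than in any control, while Hoxb2 and Hoxb4 of LATS1/2-Sox9-KO overlap the controls.

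Hoxb3 shares sequence with Hoxb3os, an antisense gene (chr11:96343072-96354691, minus strand) that covers 52.9% of the exon length of Hoxb3 and 27.3% of that of Hoxb2. Hoxb3os had 863, 815 and 1009 normalized counts in control, 374, 576 and 619 in LATS1/2-KO and 408, 437 and 319 in LATS1/2-Sox9-KO. It was lower in all 6 deletion libraries, a separation that 30.3% (LATS1/2-KO) and 33.8% (LATS1/2-Sox9-KO) of all tested genes had. Its log2 fold change was -0.78 in LATS1/2-KO (SE 0.22, adjusted p = 0.0123), past the p threshold but not the fold, and -1.21 in LATS1/2-Sox9-KO against control (SE 0.22, adjusted p = 0.000997), called lower. How much of the difference at Hoxb3 belongs to each gene was not tested, since the kit named in the labels does not mark strand. Hoxb4 overlaps no annotated exon of another gene.

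Setting LATS1/2-Sox9-KO beside LATS1/2-KO asks what adding the floxed allele of Sox9, a transcription factor of luminal progenitors, changes, although Sox9 counts themselves overlapped between these libraries. None of the 4 tested HOX genes described was called by edgeR or by DESeq2, and by edgeR only Hoxb2 had an unadjusted p below 0.05. Over all tested genes 3.71% were called, 1.55% higher and 2.16% lower, and 6.45% had an adjusted p no greater than 0.05 whatever the fold. Hotairm1 overlapped between these groups, with a log2 fold change of -0.08 (SE 0.29, adjusted p = 0.911). Hoxb2 was at 0.46 (SE 0.20, adjusted p = 0.203), Hoxb4 at 0.32 (SE 0.22, adjusted p = 0.444) and Hoxb3 at -0.73 (SE 0.35, adjusted p = 0.248) in the edgeR fit. Each of these 3 overlapped between the groups. Hoxd8 was at -1.15 (SE 0.78, adjusted p = 0.429), with every LATS1/2-Sox9-KO library below every LATS1/2-KO library, as for 13.3% of all tested genes. It passed the filter through control and LATS1/2-KO libraries only, which favoured a lower level in LATS1/2-Sox9-KO. The median log2 fold change of the 4 genes was -0.21, beside -0.02 over all tested genes. Its direction turned among the alternatives, where it ranged from -0.26 to 0.37.

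The share that Hoxb3 takes of the block was also computed. Hoxb3 gave 27.6%, 30.1% and 25.5% of the summed per-length level of Hoxb2, Hoxb3 and Hoxb4 in control, 20.9%, 16.9% and 26.5% in LATS1/2-KO and 13.4%, 10.3% and 9.58% in LATS1/2-Sox9-KO. The share in every LATS1/2-Sox9-KO library was below that in every other library, and LATS1/2-KO overlapped control. The log2 ratio of Hoxb2 to Hoxb3 by per-length level was 0.32 ± 0.26 (SD, n = 3) in control, 0.87 ± 0.58 in LATS1/2-KO and 2.06 ± 0.29 in LATS1/2-Sox9-KO. This ratio was taken up after its values were seen and is given as a description, and an exact permutation test of 3 libraries against 3 could not give a two-sided p below 0.1.

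Set against control, the LATS1/2-Sox9-KO libraries had 2 of the 4 tested HOX genes described called, both lower, beside 37.4% of all tested genes (17.8% higher and 19.6% lower, and 57.9% by the adjusted p alone). DESeq2 called these and also Hoxb6, higher (log2 fold change 4.72, adjusted p = 0.0329). Hoxb6 did not pass the filter, was called in 3 of 19 alternative settings, and had 0, 0 and 1 raw counts in control and 2, 1 and 34 in LATS1/2-Sox9-KO. The comparison shares its controls with the first. Of the 2 genes called by edgeR, Hoxd8 passed the filter only through control and LATS1/2-KO libraries. Hoxb3 fell by 1.58 on the log2 scale (SE 0.35, adjusted p = 0.00321 by edgeR), with no overlap of libraries, and was called in 18 of 19 alternative settings. Over all tested genes 33.8% had every LATS1/2-Sox9-KO library below every control. The exception was a test against a fold change of 2 itself. Hoxb2 was at 0.11 (SE 0.20, adjusted p = 0.653) and Hoxb4 at -0.11 (SE 0.22, adjusted p = 0.701). The median log2 fold change of the 4 was -0.84, beside 0.01 over all tested genes. It ran from -1.57 to 0.31 when single libraries were left out, so its direction is not firm.

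Hoxd8, a central gene of the Hoxd cluster (ENSMUSG00000027102, chr2:74704615-74707933), had 23, 6 and 37 raw counts in control, 18, 11 and 10 in LATS1/2-KO and 3, 9 and 5 in LATS1/2-Sox9-KO. Control replicate 2 stood apart from the other controls and fell among the deletion libraries. Between LATS1/2-Sox9-KO and control the log2 fold change was -2.26 (SE 0.78, adjusted p = 0.0300 by edgeR), which was called although the groups overlapped. No LATS1/2-Sox9-KO library reached the filter's cutoff, which favoured a lower level there. In a fit of only the 2 groups compared, Hoxd8 did not pass the filter. The call was lost without control replicate 1 (adjusted p = 0.0673), control replicate 3 (log2 fold change -1.60, adjusted p = 0.145), LATS1/2-Sox9-KO replicate 1 (adjusted p = 0.101) or LATS1/2-Sox9-KO replicate 3 (adjusted p = 0.0964). Between LATS1/2-KO and control it was -1.12 (SE 0.73, adjusted p = 0.222), and -0.47 without control replicate 3.

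The Hoxc cluster gave few counts, and fewer in LATS1/2-KO than in any control. Its summed per-length level was 0.16, 0.40 and 0.24 RPKM in control, 0.08, 0.07 and 0.06 in LATS1/2-KO and 0.07, 0.09 and 0.21 in LATS1/2-Sox9-KO, on 9 to 50 raw counts a library. Hoxc4, its leading member, had 6, 22 and 9 raw counts in control, 0, 0 and 1 in LATS1/2-KO and 4, 2 and 5 in LATS1/2-Sox9-KO. It did not pass the filter, and was called lower in LATS1/2-KO in 10 of 19 alternative settings, DESeq2 and a fit without the filter among them. Hoxc8, which acts in the mammary buds, had 6, 21 and 3 in control, 0, 4 and 5 in LATS1/2-KO and 3, 5 and 2 in LATS1/2-Sox9-KO, with overlap. Hoxc6 had 6, 5 and 9 in control, 4, 0 and 0 in LATS1/2-KO and 0, 1 and 1 in LATS1/2-Sox9-KO, and was too low to test. The log2 ratio of the cluster sums was -1.97 for LATS1/2-KO against control and 0.88 for LATS1/2-Sox9-KO against LATS1/2-KO.

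Within the Hoxb cluster, the genes beyond Hoxb4 had low counts that were highest in a pair of libraries. Hoxb5, Hoxb6, Hoxb7 and Hoxb8 together had 5, 17 and 5 raw counts in control, 76, 17 and 15 in LATS1/2-KO and 9, 13 and 93 in LATS1/2-Sox9-KO. LATS1/2-KO replicate 1 and LATS1/2-Sox9-KO replicate 3 thus stood apart, with 37, 18, 12 and 9 counts and 28, 34, 20 and 11 counts of the 4 genes in order. None of the 4 passed the filter. The summed per-length level of 9 fibroblast markers, of which Dcn was the most abundant over all libraries, was 7.07, 12.98 and 29.2 RPKM in control, 24.2, 6.09 and 8.44 in LATS1/2-KO and 6.71, 9.23 and 17.3 in LATS1/2-Sox9-KO. Of the 9, 4 were higher and 1 lower in LATS1/2-KO, beside 17.1% and 17.5% of all tested genes, with Lum limited as above. The sum was highest in control replicate 3, where Dcn alone made up 25.96 RPKM. Without Dcn, the sum of the other 8 markers was 1.90, 2.51 and 3.24 in control, 20.0, 5.17 and 4.75 in LATS1/2-KO and 6.62, 8.85 and 16.3 in LATS1/2-Sox9-KO. It was thus highest in the same 2 libraries as the Hoxb5 to Hoxb8 counts, led there by the collagen genes Col1a1 (6.83 and 6.37) and Col3a1 (7.69 and 5.92). Col1a2, Dpt and Lum were also highest in both, while Pdgfra, Fbln1 and Pi16 were not. Pdgfra was at 0.68 and 0.30 there and at 0.63, 0.78 and 0.55 in control, so the list did not move as one. The immune sum was also highest in these 2 libraries, at 15.5 and 7.82, but without Lyz2, its most abundant gene, it was 2.04 and 1.61, beside 1.62 in LATS1/2-Sox9-KO replicate 1 and 1.51 in control replicate 2. The part of fibroblast and immune markers in these counts was not tested. With both libraries left out, Hoxb3 was called in LATS1/2-Sox9-KO against control. Hoxd8 was then not called (adjusted p = 0.0858).

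**Figure D4:**
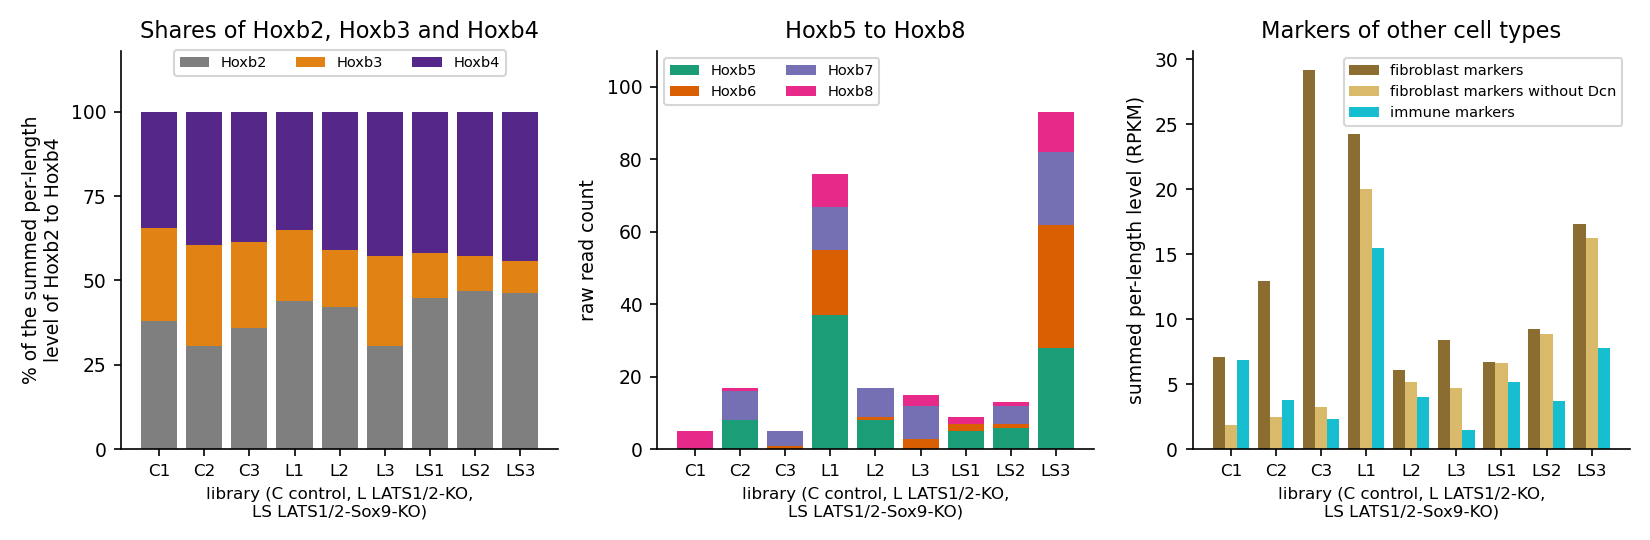
By library, the left panel gives the percentage of the summed per-length level of Hoxb2 to Hoxb4 that each gene holds, the middle panel the raw counts of Hoxb5 to Hoxb8 as stacked bars, and the right panel the summed level (RPKM) of fibroblast markers, with and without Dcn, and of immune markers. Hoxb3 holds 25.5% to 30.1% in control and 9.58% to 13.4% in LATS1/2-Sox9-KO, and Hoxb5 to Hoxb8 reach 76 and 93 counts in L1 and LS3, where the fibroblast sum without Dcn is 20.0 and 16.3.

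Genes that act with or upon HOX genes were examined as lists. The share called of all tested genes in LATS1/2-KO against control, 34.6% (17.1% higher and 17.5% lower), is the background for each count. Among 9 TALE cofactors, all tested, 2 were higher and 3 lower in LATS1/2-KO than in control, with a median log2 fold change of -0.81 beside 0.04 over all tested genes. Pknox2 fell by 4.60 on the log2 scale (SE 0.67, adjusted p = 0.000261), from 733, 786 and 1099 normalized counts to 28.1, 15.3 and 64.8, and stood at -5.33 without LATS1/2-KO replicate 3. Meis1, a partner of HOX proteins in blood cells, fell by 2.16 (SE 0.46, adjusted p = 0.00269), and stood at -3.03 without LATS1/2-KO replicate 1. Pbx3 rose by 3.19 (SE 0.30, adjusted p = 1.95e-05). Meis2, the other gene counted as higher, had at most 5.80 normalized counts in a control and between 36.5 and 61.0 in LATS1/2-KO. It passed the filter only through the deletion groups, so it had to differ. Its fitted log2 fold change of 4.28 (SE 0.92) stood at 6.06 without control replicate 1. The other lower gene was Meis3. None of the 9 was called between LATS1/2-Sox9-KO and LATS1/2-KO by edgeR or DESeq2.

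Of the 12 genes of Polycomb repressive complex 2, which places the silencing mark on HOX chromatin, 2 were lower and 0 higher in LATS1/2-KO, beside 34.6% of all tested genes called, with a median of 0.02. These were the accessory subunits Phf1 (log2 fold change -1.75, SE 0.16, adjusted p = 1.73e-05) and Jarid2 (-1.65, SE 0.16, adjusted p = 2.14e-05). The catalytic Ezh2 and the core Eed and Suz12 were at 0.75, 0.71 and 0.28, short of the fold. Their adjusted p by edgeR (0.0123, 0.000114 and 0.0430) passed the p threshold, as for 55.7% of all tested genes. Of 19 genes of complex 1, 3 were higher and 5 lower, near the background of 34.6% called, with a median of -0.36. Pcgf5 (2.12) and Yaf2 (1.67), both of variant forms of the complex, and Cbx2 (1.53) were higher, and Ring1 (-1.76), Scmh1, Phc3, Cbx7 and Cbx6 were lower. Of the CBX subunits, which bind the mark, members were thus called in both directions.

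Of 17 genes of MLL, Trithorax and other activators, 5 were lower and 0 higher in LATS1/2-KO, near the same background of 34.6% called in either direction, with a median of -0.46. Kdm6b, which removes the Polycomb mark, fell by 3.18 on the log2 scale (SE 0.25, adjusted p = 7.64e-06), from 31690, 30092 and 21843 normalized counts to 3833, 2062 and 3359. The others were Aff1 (-1.44), Dot1l (-1.43), Kmt2a (-1.36), which encodes MLL1 itself, and Mllt3 (-1.22). No gene of these 3 lists was called between LATS1/2-Sox9-KO and LATS1/2-KO, though Rybp (-0.70, adjusted p = 0.0134), Rnf2 (-0.46, adjusted p = 0.0218) and Yaf2 (-0.68, adjusted p = 0.0299), all of Polycomb complex 1, passed the p threshold of edgeR and not the fold. All 6 CDX and ParaHox genes, which act upstream of central HOX genes or are their relatives, were too low to test, and 4 of them were at 0 in every library.

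Retinoic acid genes moved in both directions. Of 15 tested, 6 were higher and 4 lower in LATS1/2-KO than in control, beside 17.1% and 17.5% of all tested genes, with a median log2 fold change of 0.28 beside 0.04 over all tested genes. Rarb, a receptor that retinoic acid itself induces, had 26.7, 29.5 and 8.71 normalized counts in control and 1358, 1940 and 1208 in LATS1/2-KO (log2 fold change 6.10, SE 0.39, adjusted p = 2.85e-06). Stra6, the cell's importer of retinol, had 1.16, 0 and 0 in control and 188, 25.4 and 102 in LATS1/2-KO. It is 1 of the 6 counted as higher, but it passed the filter only through the deletion groups, so it had to differ. Its fitted log2 fold change of 7.67, over controls near 0, moved to 9.74 without control replicate 1 and to 6.95 without LATS1/2-KO replicate 1. In Rarb every LATS1/2-KO library lay above every control, as in 31.3% of all tested genes. Its control replicate 3 was below the filter's cutoff, so Rarb also needed deletion libraries to be tested.

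Cyp26a1, an enzyme that breaks retinoic acid down, rose by 4.69 on the log2 scale (SE 0.83, adjusted p = 0.000904) and by 5.88 without control replicate 3, and Cyp26b1, another such enzyme, by 2.93 (SE 0.29, adjusted p = 2.80e-05). The lower genes were the receptors Rxra and Rara, the reductase Dhrs3 and the carrier Crabp2. Aldh1a3, the most abundant gene of the list and a synthetic enzyme, was not called.

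Between LATS1/2-Sox9-KO and LATS1/2-KO, 2 of the 15 were called, 1 higher and 1 lower, beside 3.71% of all tested genes. Cyp26b1 had 264, 519 and 486 normalized counts in LATS1/2-KO and 1581, 2161 and 1376 in LATS1/2-Sox9-KO (log2 fold change 2.01, SE 0.27, adjusted p = 0.00548). Aldh1a2, a synthetic enzyme, fell by 3.33 on the log2 scale (SE 0.63, adjusted p = 0.0174), from between 31.3 and 50.1 normalized counts to between 2.79 and 4.98. The adjusted p rose above 0.05 without LATS1/2-KO replicate 3, LATS1/2-Sox9-KO replicate 1, LATS1/2-Sox9-KO replicate 2 or LATS1/2-Sox9-KO replicate 3 for Aldh1a2 (0.0512, 0.0646, 0.0706 and 0.0644).

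**Figure D5:**
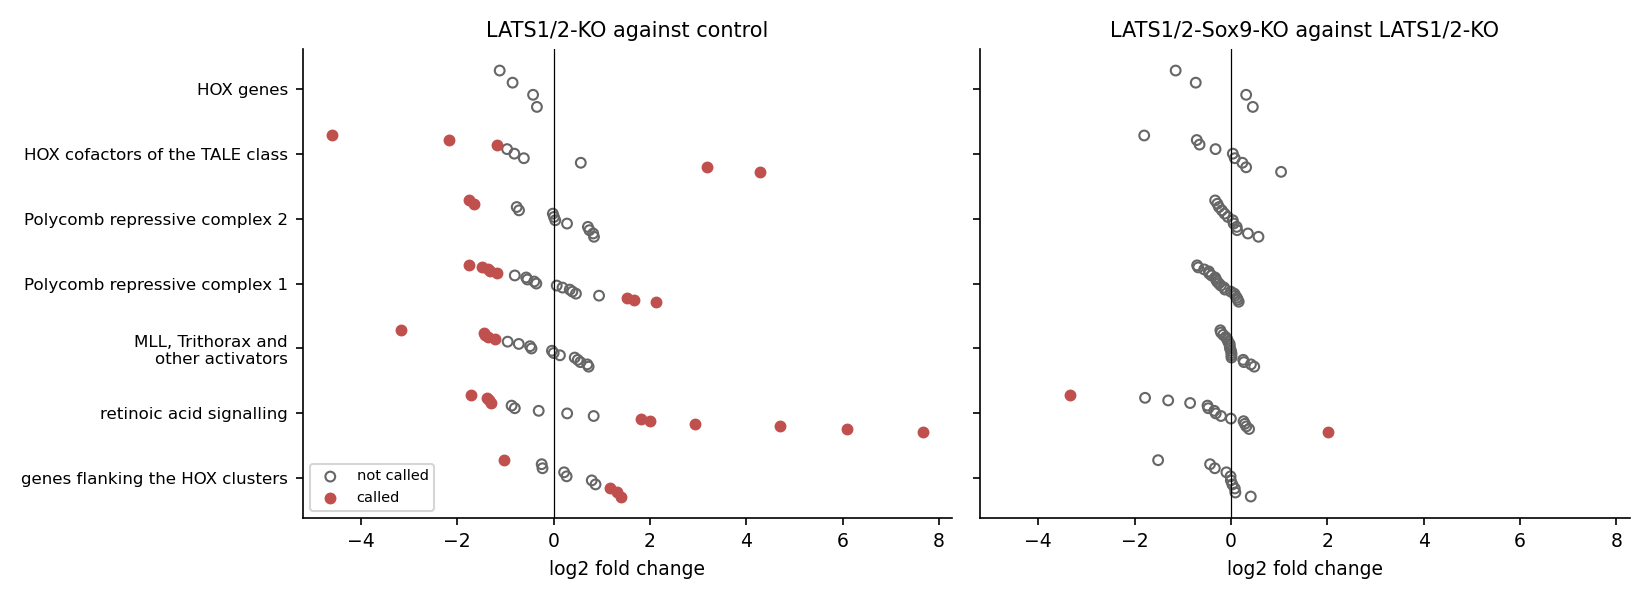
Log2 fold changes of the tested genes of 7 lists, 1 point per gene, in LATS1/2-KO against control (left) and LATS1/2-Sox9-KO against LATS1/2-KO (right). Filled points are called. On the right, only 2 points are filled, both of retinoic acid genes.

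Genes that flank the clusters were also listed, and 10 of the 14 found could be tested. Of these, 3 were higher and 1 lower in LATS1/2-KO than in control, near the background of 34.6% called, with a median of 0.53. Lnpk (1.40, SE 0.14, adjusted p = 2.36e-05) and Mtx2 (1.18, SE 0.11, adjusted p = 2.20e-05), 88.9 kb and 60.7 kb from either end of the Hoxd cluster, were higher by log2 fold change in LATS1/2-KO, and Hoxd8 between them was not called. Ttll6, 28.9 kb from the 5′ end of the Hoxb cluster, was higher by 1.31 (SE 0.51, adjusted p = 0.0497) and lost its call under RLE normalization (adjusted p = 0.0546), in a fit of only the 2 groups (adjusted p = 0.0738) and without any of 8 libraries, with an adjusted p of up to 0.142 without control replicate 2, while it stood at 2.15 without control replicate 3. Hibadh, 285 kb beyond the Hoxa cluster, fell by 1.03 on the log2 scale (SE 0.11, adjusted p = 4.20e-05), and stood at -0.98 without LATS1/2-KO replicate 2 and at -0.99 under upper-quartile normalization, both short of the fold. Skap2, 143 kb from the 3′ end of the Hoxa cluster, had 3504 to 4245 normalized counts in control and was not called in any of the 3 comparisons.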

How the data were processed

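RNA was sequenced from sorted EYFP+ mammary cells of 3 genotypes, with 3 libraries each. The authors aligned reads to mm10 with STAR 2.6.0c and counted uniquely aligned proper pairs per gene with featureCounts (Subread 1.6.2), leaving out mitochondrial genes, and deposited the counts without normalization. The study describes this counting as same-strand, without giving the program's strand option. No column was left unused (0), and no authors' comparison was used. Here the counts of 55450 genes were filtered (filterByExpr), normalized by TMM and fitted with edgeR 4.0.16 in R 4.3.3, using 1 mean per group over all 9 libraries, with p-values adjusted over the 19357 tested genes. Normalized counts were scaled to the mean effective library size, and RPKM used the union exon length of GENCODE M21. DESeq2 1.42.0 was an alternative. The fit was tested on simulated data.

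Values in every library were given for HOX genes called in any comparison, the most abundant member of each cluster in control and any near the threshold, and by rule up to 4 called genes per list, those of largest absolute log2 fold change in LATS1/2-KO against control. All other list genes named were added after their values were seen. The members and lists were chosen with earlier results of these data known, so they lend no independent support. Gm15050, Gm27477, Gm27861, the Hoxb2 to Hoxb3 ratio, the sum of Hoxb5 to Hoxb8 and further HOX members were picked after their values were seen. Of 180 listed pathway and marker genes 178 were found. Some HOX and list genes are not reported here, and sums, medians and counts over members leave them out. Total counts limit genes of few counts, and floors of 3 counts cover counting error only. Alternatives changed the normalization, the filter, the tool, the replicate block, the groups fitted and the libraries kept.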

Additional observations from a re-analysis of the deposited data

How the results depend on the processing

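Over 74 results and 1253 alternative values, 1171 kept their direction and side of the threshold or, with no test, moved by less than the spread between replicates. Of these, 18 changed sign, namely 11 of the HOX median in LATS1/2-Sox9-KO against LATS1/2-KO and 7 of the log2 ratio of the Hoxa sums (1 in LATS1/2-KO against control and 6 in LATS1/2-Sox9-KO against LATS1/2-KO). In LATS1/2-KO against control, the number of described HOX genes called was 1 with no filter on low counts, 1 with DESeq2, 1 with both libraries richest in Hoxb5 to Hoxb8 left out (an alternative chosen after seeing the data) and 0 to 2 when single libraries were left out. In LATS1/2-Sox9-KO against control it was 3 with no filter, 3 with DESeq2, 0 with a test against a fold change of 2 (glmTreat), 1 with at least 10 counts in every library, 1 with the replicate block, 1 with both libraries left out, 1 with only the 2 groups compared and 1 to 3 when single libraries were left out. Over all genes, glmTreat called 4005, 32 and 4708 genes in LATS1/2-KO against control, LATS1/2-Sox9-KO against LATS1/2-KO and LATS1/2-Sox9-KO against control. In LATS1/2-Sox9-KO against LATS1/2-KO, DESeq2 called 1259 genes, and leaving out single libraries gave 201 (without LATS1/2-Sox9-KO replicate 2) to 1079 (without LATS1/2-KO replicate 1). The median of the tested HOX genes depended on which genes passed the filter. In LATS1/2-KO against control it was 0 with no filter, 0 with DESeq2 and -0.86 to 0.028 when single libraries were left out. In LATS1/2-Sox9-KO against LATS1/2-KO it ranged from -0.26 to 0.37 over all alternatives, so its direction turned. In LATS1/2-Sox9-KO against control it was 0.077 with no filter, 0.043 with DESeq2, -0.13 with at least 10 counts in every library, -0.10 with only the 2 groups compared, -1.41 with both libraries left out and -1.57 to 0.31 when single libraries were left out. Directions between LATS1/2-Sox9-KO and LATS1/2-KO turned for Hotairm1 (-0.24 to 0.18), Gm15050 (-1.06 to 0.21) and Lats2 (-0.036 to 0.29) when single libraries were left out, and between LATS1/2-Sox9-KO and control for Hoxb2 (-0.062 to 0.26) and Hoxb4 (-0.28 to 0.049). The cause was not tested. The deviations from the group means of libraries with the same number correlated at -0.066 to 0.17, with 2 of 9 such pairs over 0.1, so the numbers were not taken to pair the libraries. With the replicate block, the call of Hoxd8 (LATS1/2-Sox9-KO against control, adjusted p = 0.0861) was lost. Described members with few counts, 34 of 38, are limited by depth.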
